A study of Homo sapiens with 4 samples.

Results

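THP-1 cells that had spent 12 h with platelet-like particles were compared with resting THP-1 cells, gene by gene, as the difference of 2 log2 array values. Each gene is read here through 1 probe set, the brightest by its mean on the study's 4 arrays among those naming no other gene, and 19775 genes have such a probe set. Of these, 13328 genes reached 6.19, the median of all deposited values, on the resting or the 12 h array, and they are the genes counted here. Among them, 12387 reached it on both arrays, 524 on the 12 h array only and 417 on the resting array only. At the edge of the filter, AQP5 was left out with 6.07 on the resting and 6.19 on the 12 h array, just below the limit before rounding, and SCARA3 was kept with 6.19 and 6.03.

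THP-1 is an established human line from an acute monocytic leukaemia. The study has 4 arrays, 1 for each condition: resting cells, cells given Pam3CSK4, and cells co-cultured with the particles for 12 h or for 24 h. The series design states that Pam3CSK4 was also given to the cells in co-culture, so the difference described here holds the effects of the lipopeptide, of the particles and of time together, and these cannot be told apart from these 2 arrays. The title of the 12 h array carries the number 13 while its description gives 12 h, and the description was used. The sources used here give neither the duration of treatment for the Pam3CSK4 array nor the cells from which the particles came. No condition has a replicate culture, so no test was possible and no difference can be set against a spread between cultures. In the text, higher and lower stand for the 12 h array relative to the resting array, and a gene is counted when its values differ at least 2-fold, which is 1 on the log2 scale. In RNA from a whole culture, a change in the number of cells of a kind and a change in RNA per cell cannot be told apart.

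The labelled line was checked against 14 markers of monocytic leukaemia cells, of which 12 have a probe set of their own and 11 reached the filter. The common leucocyte antigen PTPRC stood at 10.78 on the resting and 11.76 on the 12 h array, lysozyme (LYZ) at 12.98 and 13.29, and the myeloid transcription factor CEBPA at 12.49 and 12.12. The high-affinity Fc receptor FCGR1A stayed below the filter, at 4.94 and 4.41. The array carries probe sets for the 3′ and 5′ ends of GAPDH, and their gap, which widens as RNA is shortened, was 2.16 on the resting array and 0.92 on the 12 h array. On the Pam3CSK4 and 24 h arrays it was 0.59 and 0.70, so the resting array alone stood apart. For ACTB the gap was 3.41 on the resting and 3.17 on the 12 h array, and 2.91 and 2.90 on the Pam3CSK4 and 24 h arrays. The wider GAPDH gap moves with the comparison, and its part in the differences was not tested.

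Pam3CSK4 is a synthetic lipopeptide that copies the lipid-capped end of bacterial lipoproteins and is bound by TLR1 together with TLR2 at the cell surface. The receptor pair signals through the adaptor MYD88 and the IRAK kinases to the IkB kinase, which frees NF-kB to enter the nucleus, where it drives chemokines, cytokines and also the inhibitors that end the signal. Interferons act on promoters through STAT factors with IRF9, at a site known as the interferon-stimulated response element. The term platelet-like particles is commonly used for fragments released by megakaryocytic cells in culture, and platelets and their fragments are known to bind to monocytes.

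The interferon and chemokine groups lead the comparison, and for each the promoters of 2 genes are printed, those with the largest difference among the genes whose promoter holds the site. The sequences are from RefSeq (assembly GRCh38.p14), run 5′ to 3′ on the strand of the gene, and cover 250 bases before to 50 bases after the annotated start. Capitals mark the letters GAAANNGAAA, searched on both strands, in the interferon-stimulated genes IFI44L at chr1:78620198-78620497 on the plus strand and IFI44 at chr1:78649539-78649838 on the plus strand. In IFI44L the letters begin 164 and 73 bases before the start, and in IFI44 they lie on the opposite strand, beginning 18 bases before it.
IFI44L: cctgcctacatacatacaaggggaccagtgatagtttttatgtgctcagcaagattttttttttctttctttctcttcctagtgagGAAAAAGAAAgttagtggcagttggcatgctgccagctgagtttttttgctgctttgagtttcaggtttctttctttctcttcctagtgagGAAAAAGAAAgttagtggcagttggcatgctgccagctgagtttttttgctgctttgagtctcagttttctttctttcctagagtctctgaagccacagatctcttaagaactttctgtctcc
IFI44: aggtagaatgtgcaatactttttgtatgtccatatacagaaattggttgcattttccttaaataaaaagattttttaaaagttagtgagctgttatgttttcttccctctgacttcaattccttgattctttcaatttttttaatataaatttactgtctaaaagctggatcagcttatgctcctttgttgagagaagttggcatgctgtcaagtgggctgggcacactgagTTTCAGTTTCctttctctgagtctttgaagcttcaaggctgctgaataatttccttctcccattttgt

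In the chemokine genes CXCL1 at chr4:73869143-73869442 on the plus strand and CXCL10 at chr4:76023448-76023747 on the minus strand, capitals mark matches to the NF-kB consensus on either strand. CXCL1 holds 2 overlapping matches, which begin 79 and 78 bases before the start. The matches in CXCL10 begin 177 and 122 bases before the start, the latter matching the consensus on both strands. The CXCL10 promoter also holds the interferon letters, which are not capitalised here.
CXCL1: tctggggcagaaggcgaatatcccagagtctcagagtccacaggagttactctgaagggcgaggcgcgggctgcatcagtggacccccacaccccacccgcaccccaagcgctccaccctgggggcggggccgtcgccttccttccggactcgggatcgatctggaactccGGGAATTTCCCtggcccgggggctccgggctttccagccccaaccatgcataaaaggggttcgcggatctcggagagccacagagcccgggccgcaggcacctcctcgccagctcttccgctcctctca
CXCL10: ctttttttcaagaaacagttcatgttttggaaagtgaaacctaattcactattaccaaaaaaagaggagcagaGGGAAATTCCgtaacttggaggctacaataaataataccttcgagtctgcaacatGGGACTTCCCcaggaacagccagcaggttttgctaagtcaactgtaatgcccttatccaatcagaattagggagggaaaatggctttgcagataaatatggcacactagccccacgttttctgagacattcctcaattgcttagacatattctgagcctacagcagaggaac

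The promoter table holds 27305 genes, of which 3.65% carry the interferon letters and 10.8% the NF-kB consensus in a window of 300 bases. Over the 10729 of them whose genes passed the filter, the shares were 2.73% and 13.2%. Of the antiviral interferon-stimulated genes, 29 matched the table and 20 (69%) carried the interferon letters, as did 3 of 5 guanylate-binding protein genes. Of the genes at least 2-fold higher, 522 matched, with the interferon letters in 10.2% and the NF-kB consensus in 16.5%. Of those at least 2-fold lower, 463 matched, with 1.94% and 18.1%. The NF-kB consensus stood in 5 of 7 promoters of neutrophil-attracting CXC chemokines, 2 of 6 of the other CXC chemokines, 3 of 14 of CC chemokines, 5 of 9 of NF-kB and IkB genes and 2 of 16 of TLR signal brakes. The interferon letters stood in 0 of 7, 2 of 6, 0 of 14, 1 of 9 and 0 of 16 promoters of these lists, in the same order. A match is a run of letters and not a measured site, and these shares were not tested.

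Between the arrays, 683 genes were at least 2-fold higher (5.12% of 13328) and 565 at least 2-fold lower (4.24%), together 1248 genes (9.36%). Without the filter, 706 of 19775 genes (3.57%) were higher and 591 (2.99%) lower. The higher genes reached further: 261 of them were at least 4-fold, 114 at least 8-fold, 55 at least 16-fold and 14 at least 64-fold higher. Of the lower genes, 73 were at least 4-fold and 9 at least 8-fold lower, and 0 reached 16-fold. The 195 higher genes with a resting value under the filter had entered only through their 12 h value, as 98 lower genes had entered only through their resting value. The median difference of all genes past the filter was -0.08.

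**Figure D1:**
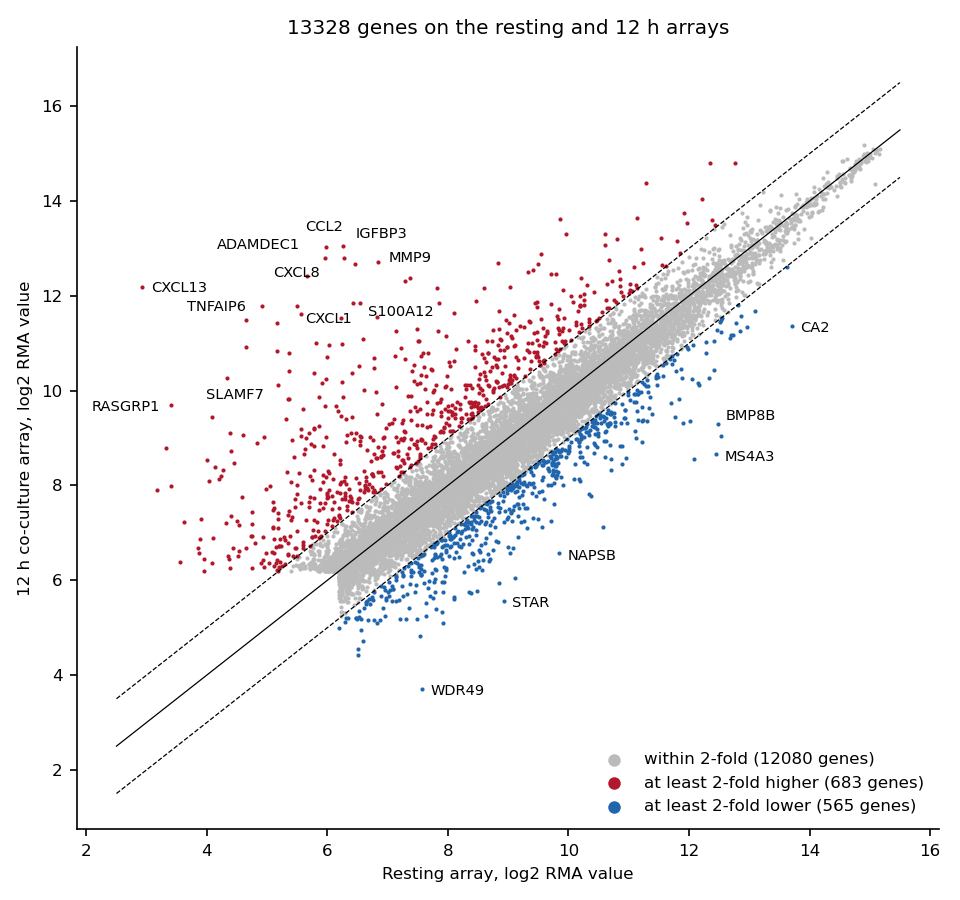
Each point is 1 of 13328 genes, with its log2 RMA value on the resting array (x) and on the 12 h co-culture array (y). The solid line marks equal values and the dashed lines 2-fold differences. The 683 higher genes (red) reach up to 9.25 log2 units above the solid line, while the 565 lower genes (blue) lie within 3.87 of it.

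Where a higher gene had several probe sets past the filter (323 genes), 303 had the same sign in all of them and 165 were at least 2-fold higher in all. Among 243 lower genes with several probe sets, 210 had the same sign throughout and 85 were at least 2-fold lower in all. Of genes with a resting value from 6.19 to 8, 4.52% were higher and 2.75% lower. From 8 to 10 the shares were 4.42% and 5.48%, and at 10 or above they were 1.96% and 5.31%.

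CXCL13, a chemokine that draws B cells, stood at 2.93 in resting cells, at 11.43 in cells with Pam3CSK4, and at 12.18 and 11.46 after 12 h and 24 h of co-culture, so the resting array alone was low. TNFAIP6, a secreted hyaluronan-binding protein, read 4.91, 11.12, 11.78 and 11.21 in the same order. ADAMDEC1, a macrophage metalloprotease, read 5.96, 13.21, 12.81 and 13.34. In each of these the arrays with Pam3CSK4 lay close together and far above the resting value.

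IGFBP3, which binds insulin-like growth factors, went from 6.26 on the resting array to 13.04 at 12 h. EBI3, a subunit shared by interleukins 27 and 35, went from 5.67 to 12.42. The kinase SGK1 went from 6.45 to 12.67 and the guanine exchange factor RASGRP1 from 3.40 to 9.70. These values place 4 genes of unlike function among the 15 leading ones beside the chemokines.

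Lower genes spanned a smaller range. WDR49 stood at 7.58, 4.09, 3.70 and 4.59 in that same order of arrays. MS4A3, a membrane protein of granulocyte-monocyte progenitors, stood at 12.46, 8.81, 8.66 and 8.61. MYADM, named as a myeloid differentiation marker, stood at 12.09, 9.50, 8.56 and 9.49. In all 3, the resting array alone was high.

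The retinol dehydrogenase gene DHRS9 differed by -3.49 and the steroidogenic cholesterol carrier STAR by -3.37. BMP8B, a ligand of the TGF-beta superfamily, differed by -3.18, PDGFD, a platelet-derived growth factor, by -2.90, and the transcription factors OSR2 and DACH1 by -3.06 and -2.82. RASGRP2, an activator of the small GTPase Rap1, differed by -3.44, but its probe sets ranged from -3.50 to -0.10. GPM6B, a membrane proteolipid, differed by -2.72. Without probe sets of suffix _x_at or _s_at it differed by -0.63, in a probe set under the filter on both arrays. The other leading lower genes were NAPSB (-3.28), STYXL2 (-2.71), NREP (-2.67) and the mucin MUC19 (-2.64).

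**Figure D2:**
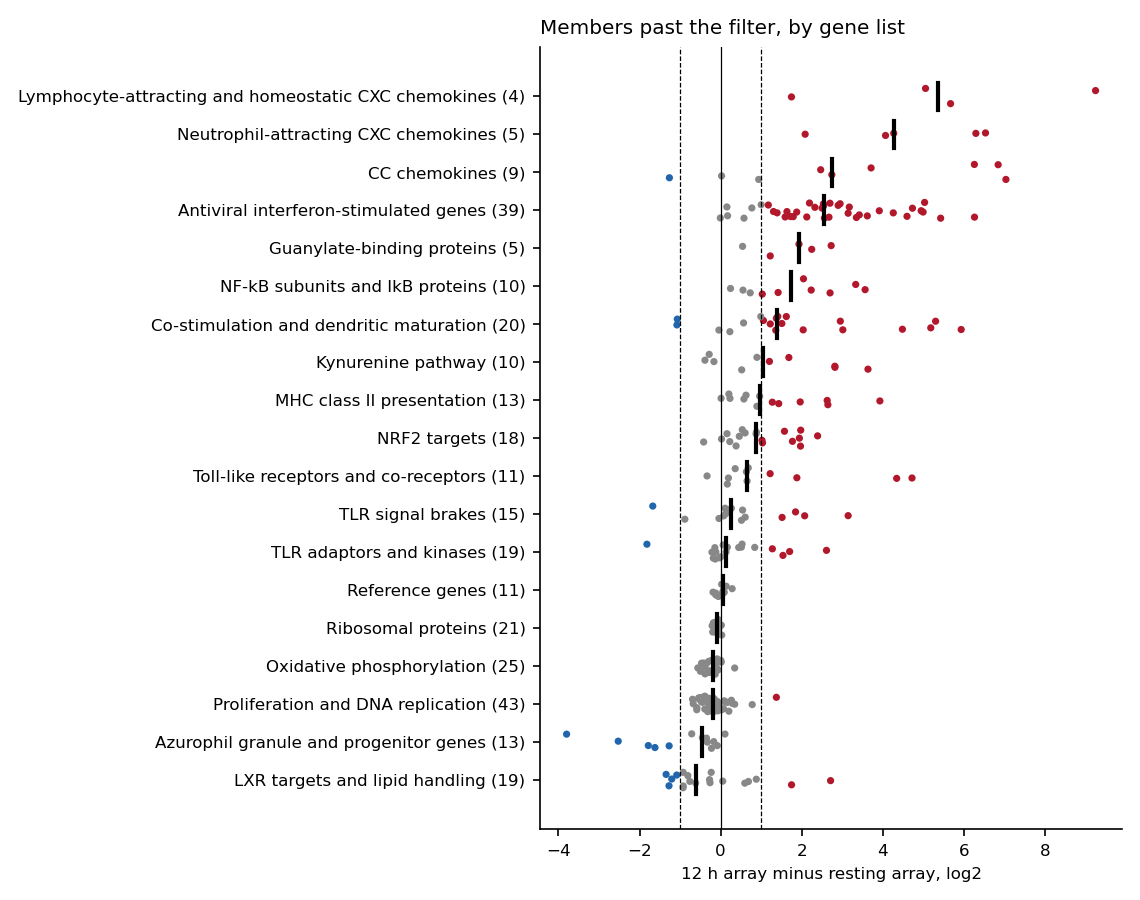
Each point is a member of a gene list that reached the filter, placed by its log2 difference between the 12 h and resting arrays (x). Rows are 19 lists ordered by their median (black bar), with the number of members in brackets, and dashed lines mark 2-fold. Chemokine and interferon-stimulated lists lie to the right, with medians of 5.36, 4.27, 2.74 and 2.54, and the progenitor list to the left, with -0.45. The lipid list, at -0.62, is at -0.04 without _x_at and _s_at probe sets.

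Gene lists are described from receptor to target, and their counts are read against the 5.12% of all genes that were higher and the 4.24% that were lower. Members under the filter in resting cells entered through a higher 12 h value, which favours counts of higher genes. Of the 524 genes so entered, 195 (37.2%) were higher and 0 lower. Of the 51 lists on pathways and cell functions, 10 had a median of at least 1 among the members past the filter and 0 had a median of -1 or lower.

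Of the Toll-like receptors and their co-receptors, 15 are on the array, 11 reached the filter, 4 were higher and 0 lower, with a median of 0.65 (0.36 over all 15). Through their 12 h value only, 5 of the 11 had entered, among them LY96, TLR8 and TLR1. LY96, the MD-2 protein that sits on TLR4, read 5.99 (resting), 10.37 (Pam3CSK4), 10.71 (12 h) and 10.81 (24 h), an order of arrays kept for every run of 4 values from here on. TLR8, an endosomal sensor of single-stranded RNA, stood at 4.39, 9.85, 8.74 and 9.91. CD14, the co-receptor that hands lipopeptide and lipopolysaccharide to these receptors, stood at 6.52, 8.93, 7.74 and 9.13. For TLR8 and CD14 the 12 h value was the lowest of the arrays with Pam3CSK4.

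TLR1, the partner that recognises the ligand, was higher by 1.88, from 4.38 to 6.26, the latter just above the filter. TLR2 itself was within 2-fold, at 9.87, 10.87, 10.23 and 10.74. The remaining receptors past the filter were also within 2-fold, with TLR4 at 0.65, TLR5 at 0.68, TLR6 at 0.64, LY86 at 0.19, LBP at 0.17 and CD180 at -0.33.

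Most adaptors and kinases lay close to their resting level. All 19 on the array reached the filter, 4 were higher and 1 lower, with a median of 0.13. The kinase IRAK2 was higher by 2.61 (0.89 as the mean of its probe sets), MAP3K8, which starts the ERK branch, by 1.70, the IkB-kinase relative IKBKE by 1.54 and the ubiquitin ligase TRAF3 by 1.28 (0.98 as a mean). BTK, a tyrosine kinase of B and myeloid cells, was the lower member, at 9.07, 8.57, 7.25 and 8.31.

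The core of the route was within 2-fold. MYD88 differed by 0.53, TIRAP by 0.84, TICAM1 by 0.51, TBK1 by 0.45, IRAK1 by -0.14, TRAF6 by 0.06 and MAP3K7 by -0.12. TAB1, TAB2 and TAB3, which activate that kinase, differed by -0.13, -0.21 and 0.01, and MAPK8 by -0.02. The catalytic and regulatory subunits of the IkB kinase, CHUK, IKBKB and IKBKG, differed by -0.18, 0.13 and 0.17.

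NF-kB subunits and IkB proteins were higher in 7 of 10 members past the filter and lower in 0, with a median of 1.73. NFKBIZ, a nuclear IkB protein, stood at 8.60, 11.94, 12.16 and 11.99. NFKBIA, the inhibitor that NF-kB itself induces, stood at 9.97, 13.04, 13.30 and 13.01. A probe set without the suffix _s_at, under the filter on both arrays, differed by 0.51. RELB was higher by 2.70, NFKBIE by 2.23, NFKB1 by 2.04, REL by 1.42 (0.98 as a mean of probe sets) and NFKB2 by 1.03. RELA, the main activating subunit, was at 0.24, NFKBIB at 0.55 and NFKBID at 0.73. With the probe sets used, 2 IkB proteins led the list and RELA differed least. Another probe set of RELA was at 0.73, and another of NFKBID at 0.11.

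Brakes on the pathway split. Of 15 past the filter, 4 were higher and 1 lower, with a median of 0.27. TNFAIP3, the ubiquitin-editing enzyme A20, was higher by 3.14 and its partner TNIP1 by 1.52 (0.96 without _x_at and _s_at probe sets). The deubiquitinase CYLD was higher by 2.07 with 5 probe sets from -0.00 to 2.07, and the ubiquitin ligase PELI1 by 1.85. PTPN22, a tyrosine phosphatase, was lower by -1.67 (-0.98 as a mean). The rest were within 2-fold: DUSP2 0.61, TOLLIP 0.54, IRAK3 0.52, OTUD7B 0.27, TNFAIP8L2 0.22, DUSP1 0.13, TNIP2 0.11, TRAFD1 0.08, ZFP36 -0.04 and SIGIRR -0.88. Another probe set past the filter differed by 1.06 for DUSP1 and by -1.13 for SIGIRR.

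**Figure D3:**
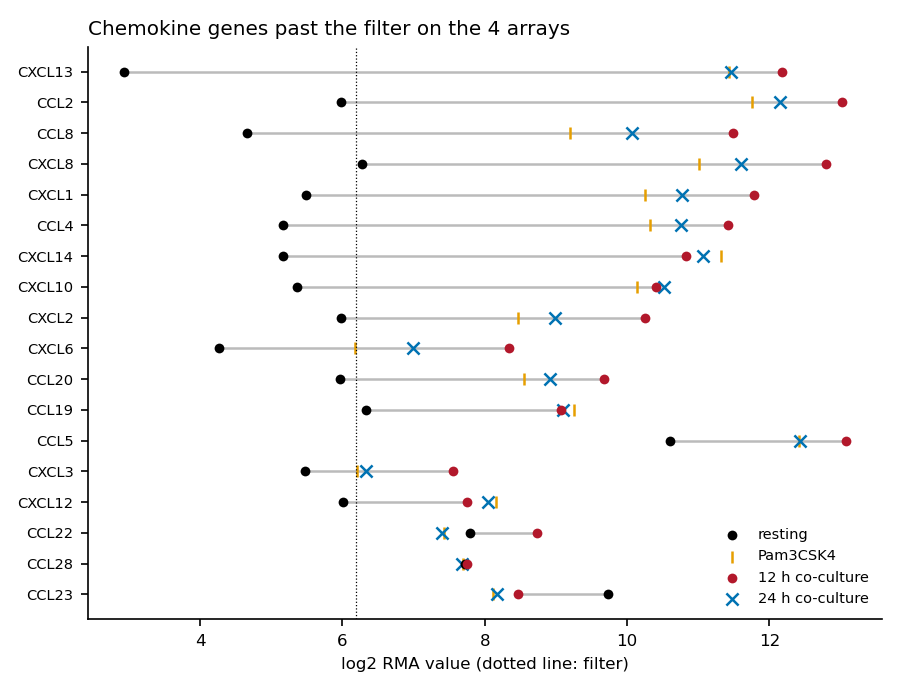
Log2 RMA values (x) of the 18 chemokine genes past the filter, 1 row each, on the resting, Pam3CSK4, 12 h and 24 h arrays, ordered by the difference between the 12 h and resting arrays. The grey line joins the resting and 12 h values, and 15 genes lie at least 2-fold to the right of their resting value, while CCL23 lies to the left.

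Chemokines made up 6 of the 15 leading higher genes. Over the 3 chemokine lists, 31 genes are on the array, 18 reached the filter, 15 were higher and 1 lower. Of those 18 genes, 12 had a resting value under the filter and entered the count through their 12 h value.

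Among neutrophil-attracting CXC chemokines, 8 are on the array and the 5 past the filter were all higher (median 4.27, or 3.08 over the 8). CXCL8 stood at 6.27, 11.01, 12.80 and 11.60. CXCL1 stood at 5.49, 10.25, 11.79 and 10.77, and CXCL6 at 4.27, 6.18, 8.33 and 6.99. In these genes the 12 h value was the highest of the 4. CXCL2 was higher by 4.27 and CXCL3 by 2.08, and these 2 and CXCL1 are close copies of each other whose probe sets may share signal. Without probe sets of suffix _x_at or _s_at, CXCL2 differed by 0.65, in a probe set under the filter on both arrays. The platelet chemokines PF4 (5.89 and 5.95) and PPBP (3.40 and 3.62) stayed under the filter, as did CXCL5.

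The lymphocyte-attracting and homeostatic CXC chemokines had 7 genes on the array and 4 past the filter, all higher (median 5.36, or 1.75 over the 7). Beside CXCL13, CXCL14 stood at 5.16, 11.31, 10.83 and 11.07, with another probe set at 0.41. The interferon-induced CXCL10 stood at 5.36, 10.14, 10.41 and 10.52, and CXCL12, a ligand of CXCR4, at 6.01, 8.16, 7.76 and 8.05. The 24 h or the Pam3CSK4 array held the highest value of these last 3. CXCL11 was higher by 1.27 but under the filter, at 3.81 and 5.08, and CXCL9 was under it too.

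CC chemokines had 16 genes on the array and 9 past the filter, of which 6 were higher and 1 lower (median 2.74, or 0.46 over the 16). The monocyte attractants CCL2 and CCL8 stood at 5.98, 11.76, 13.02 and 12.16, and at 4.65, 9.20, 11.50 and 10.07. CCL4 was higher by 6.26, CCL20 by 3.71, CCL19 by 2.74 and CCL5 by 2.47. CCL23 was lower, from 9.73 to 8.47. CCL22 differed by 0.94 and CCL28 by 0.02. A probe set that reads CCL3, CCL3L1 and CCL3L3 together differed by 5.11.

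Receptors for chemokines and chemoattractants went both ways. Of 20 on the array 15 reached the filter, 6 were higher and 3 lower, with a median of 0.19. All higher members but C3AR1 had a resting value under the filter and entered through their 12 h value. The median was -0.59 over the 6 members that passed a stricter filter, the 75th percentile. ACKR3, which scavenges CXCL12, was higher by 2.75, the complement receptors C3AR1 and C5AR1 by 1.71 and 1.17, CCRL2 by 1.5, the lymph-node homing receptor CCR7 by 1.05 and the formyl peptide receptor FPR1 by 1.08. FPR1 was at -0.20 with the probe set free of the suffix _s_at, which was under the filter on both arrays. CCR2, the receptor of CCL2, was lower, at 11.88, 10.93, 10.27 and 10.86, with a mean over probe sets of -0.89. CXCR2, the receptor of CXCL1 and CXCL8, was lower at 8.72, 7.65, 7.24 and 7.68, and CX3CR1 by -1.22 (-0.92 as a mean). Thus ligands and receptors of the CCL2 and CXCL8 groups stood on opposite sides of their resting level.

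The interleukin-1 family had 10 members past the filter, 4 higher and 0 lower (median 0.63, or 0.26 over the 17 on the array). IL1B stood at 6.83, 10.78, 11.56 and 10.79. The chains of the interleukin-18 receptor, IL18R1 and IL18RAP, were higher by 2.08 and 1.2, and the decoy receptor IL1R2 by 1.54. These 3 reached the filter on the 12 h array and not on the resting one.

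Among other cytokines, 13 of 27 on the array reached the filter, 4 were higher and 0 lower (median 0.29, or 0.07 over the 27). Beside EBI3 these were IL23A, a subunit of interleukin 23, by 2.08 (0.50 as a mean of probe sets), the angiogenic factor VEGFA by 1.74 and IL32 by 1.17. IL12B, the subunit shared by interleukins 12 and 23, stood at 3.61, 4.17, 6.11 and 4.20 and stayed under the filter. Its 12 h value stood above those of the other arrays.

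Cytokine receptors had 25 members past the filter, 9 higher and 2 lower (median 0.86). The interleukin-10 receptor chain IL10RA was higher by 3.99, IL7R by 2.55, CSF2RB by 1.69, IFNGR2 by 1.61, IL27RA by 1.60 (0.92 as a mean) and IL15RA by 1.33. The stem cell factor receptor KIT was lower by -1.24 and the interleukin-3 receptor chain IL3RA by -1.09. Receptors of progenitor growth factors thus stood on both sides, with KIT and IL3RA lower and CSF2RB higher.

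The TNF superfamily had 23 members past the filter, 9 higher and 0 lower (median 0.47). TNF stood at 6.61, 9.80, 10.02 and 9.84. TNFRSF9, a co-stimulatory receptor, was higher by 3.54, the B-cell survival factor TNFSF13B by 2.13, TNFRSF1B, the second TNF receptor, by 2.13, the death ligand TNFSF10 by 1.28 and CD40 by 1.23.

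**Figure D4:**
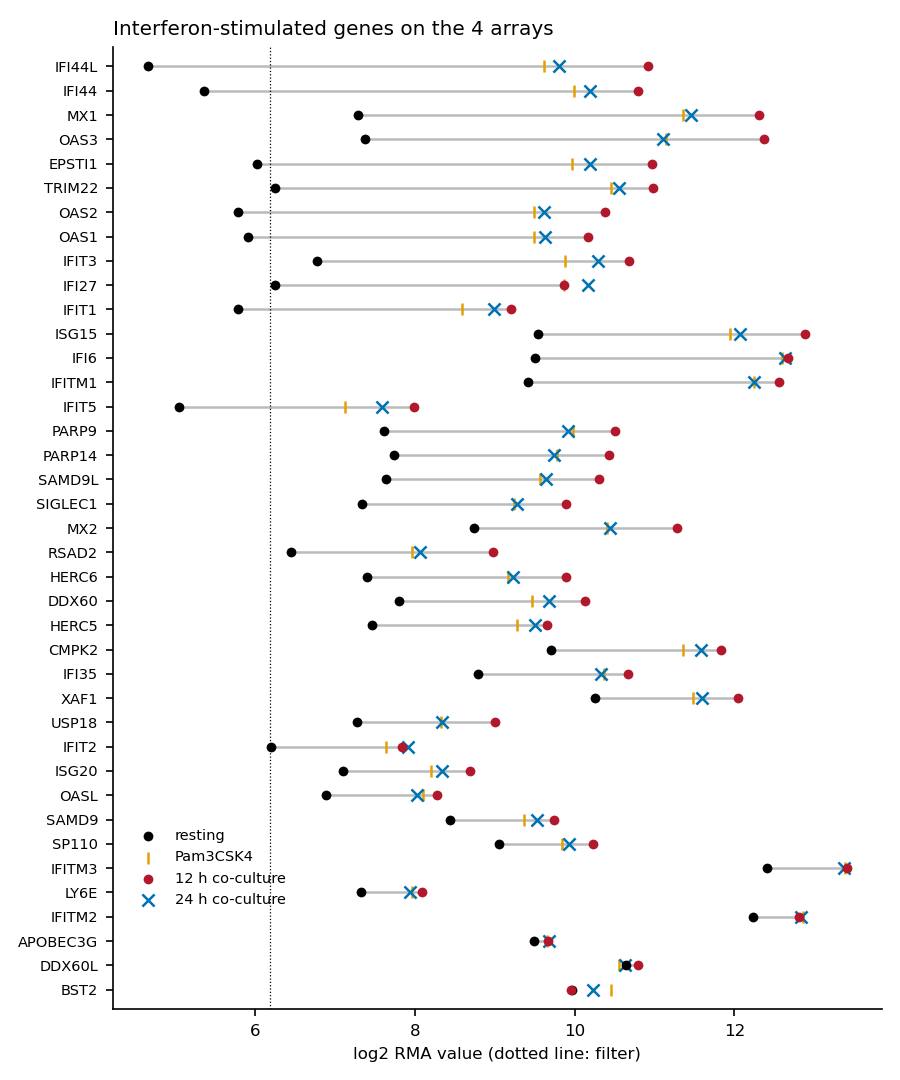
Log2 RMA values (x) of 39 interferon-stimulated genes, 1 row each, on the resting, Pam3CSK4, 12 h and 24 h arrays, ordered by the difference between the 12 h and resting arrays. The grey line joins the resting and 12 h values, and 33 of the 39 genes lie at least 2-fold to the right of their resting value.

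Most antiviral interferon-stimulated genes stood higher. All 39 on the array reached the filter, 33 were higher and 0 lower, with a median of 2.54, and 7 had entered through the 12 h value only. IFI44L stood at 4.65, 9.61, 10.91 and 9.81. MX1, an antiviral GTPase, stood at 7.28, 11.35, 12.31 and 11.46. OAS3, a sensor of double-stranded RNA, stood at 7.37, 11.14, 12.37 and 11.11. In 34 of the 39 genes the 12 h array held the highest of the 4 values. It did so in 25% of all genes past the filter and in 74.7% of those at least 2-fold higher.

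IFI44 was higher by 5.43, EPSTI1 by 4.95, the antiviral ligase TRIM22 by 4.73 and the sialic acid-binding receptor SIGLEC1 by 2.56. The other 6 members were within 2-fold: BST2 (-0.01), DDX60L (0.16), APOBEC3G (0.17), IFITM2 (0.58), LY6E (0.77) and IFITM3, which at 0.9998 lay just under the threshold.

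Guanylate-binding proteins, GTPases that attack microbes inside cells, were higher in 4 of 5 members past the filter and lower in 0 (median 1.93, or 1.58 over the 6 on the array). Among them, 3 had entered through their 12 h value only: GBP1, GBP2 and GBP4. GBP2 was higher by 2.73, GBP5 by 2.25, GBP1 by 1.93 and GBP4 by 1.22 (0.71 as a mean of probe sets). Of the IRF and STAT factors, 3 of 16 were higher and 0 lower (median 0.40): IRF7 by 2.78, IRF9 by 2.31 and STAT4 by 1.85.

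Nucleic acid sensors were higher in 6 of 11 members and lower in 1 (median 1.5, or 1.15 over the 12 on the array). IFIH1, a sensor of long double-stranded RNA, was higher by 2.62, the kinase EIF2AK2 by 2.5, IFI16 by 2.49, RIGI by 2.31, with probe sets down to 0.04, DHX58 by 1.78 and the DNA sensor AIM2 by 1.5. STING1, the adaptor of DNA sensing, was lower and stood at 10.61, 9.60, 8.60 and 9.34. The SOCS suppressors, which dampen cytokine receptors, had 0 of 9 members at 2-fold (median -0.17), with SOCS1 at 0.47 and SOCS3 at 0.17.

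Class I antigen presentation differed little, with 2 of 16 members higher and 0 lower (median 0.45). These were the peptide transporter TAP1 by 1.68 and TAPBP by 1.09 (0.90 as a mean). Class II presentation had 6 of 13 higher and 0 lower (median 0.96). HLA-DRA stood at 6.25, 10.13, 10.17 and 10.05. HLA-DQA1 was higher by 2.65, HLA-DPA1 by 2.63, the peptide editor HLA-DMA by 1.96, cathepsin S (CTSS) by 1.43 and HLA-DRB1 by 1.28. Probe sets of HLA-DRB1 and HLA-DQA1 may read close copies of these genes.

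Co-stimulation and dendritic maturation genes were higher in 14 of 20 members and lower in 2 (median 1.39). Through the 12 h value only, 6 of the 20 had entered. LAMP3, a lysosomal protein of mature dendritic cells, stood at 5.82, 8.52, 11.001 and 8.48, highest at 12 h. SLAMF7, a homotypic receptor of leucocytes, stood at 4.34, 8.44, 10.27 and 8.99. The amino acid oxidase IL4I1 was higher by 5.30, SLAMF8 by 4.48, CD83 by 3.01 and CD80, a ligand of CD28, by 2.95. The lipid-presenting molecule CD1D was lower by -1.08 and the transcription factor BATF3 by -1.07, the latter -0.95 after cyclic loess.

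Among S100 proteins, 4 of 10 were higher and 0 lower (median 0.76, or 0.53 over the 11 on the array). S100A12 stood at 6.53, 12.50, 11.84 and 12.67, S100A9 was higher by 3.10 and S100A8 by 2.45, the pair that forms calprotectin. S100B stood at 5.18, 5.60, 6.19 and 5.62, just at the filter, and was at 0.33 as a mean of probe sets.

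The phagocyte oxidase list had 3 of 7 members higher and 0 lower (median 0.78, or 0.38 without _x_at and _s_at probe sets). CYBB, its membrane-bound catalytic subunit, stood at 6.42, 11.03, 11.85 and 11.38. NCF1, a cytosolic subunit with near-identical pseudogenes, was higher by 3.18 and the mitochondrial superoxide dismutase SOD2 by 2.43. Matrix proteases and their inhibitors had 4 of 17 higher and 0 lower (median 0.48). The gelatinase MMP9 stood at 6.84, 12.79, 12.71 and 12.79. ADAM28 was higher by 4.08, with probe sets down to 0.21, and the collagenase MMP1 by 2.94, beside ADAMDEC1 above.

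Surface receptors of phagocytes were mixed. Myeloid C-type lectins had 4 of 10 members higher and 1 lower (median 0.54, or 0.32 over the 18 on the array). Through the 12 h value only, 4 of the 10 had entered, among them CLEC7A, CLEC5A and CLEC4A. The beta-glucan receptor CLEC7A was higher by 4.47, CLEC5A by 2.94, CD209 by 1.41 (0.68 as a mean) and CLEC4A by 1.34. CLEC12A, an inhibitory lectin of myeloid precursors, was lower by -1.51 (-0.51 as a mean).

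Fc and inhibitory receptors had 6 of 16 higher and 2 lower (median 0.28). Beside SIGLEC1, the higher ones were SIRPA (1.5, or 0.85 as a mean), LILRB2 (1.44), SIGLEC5 (1.21), FCGR2B (1.13) and FCER1G (1.06). LILRA2 was lower by -1.67 (-0.92 as a mean). CD300A was lower by -1.01, and was at 0.09 without _x_at and _s_at probe sets, in a probe set under the filter on both arrays.

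Integrins and adhesion molecules had 5 of 24 higher and 2 lower (median 0.26). VCAM1, a ligand of the integrin ITGA4, was higher by 4.47, from 4.6 to 9.07, and ICAM1 by 4.00, from 6.52 to 10.52. The hyaluronan receptor CD44 was higher by 2.21 over 9 probe sets from 1.89 to 2.54, and CD58 by 1.81. ITGAM, the alpha chain of the complement receptor Mac-1, was higher by 1.53, but another probe set was at -0.09. ITGA4 was lower by -1.35 and ICAM3 by -1.01 (-0.88 after cyclic loess).

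Scavenger and dead-cell uptake receptors had 3 of 18 higher and 0 lower (median 0.05). CD36, which takes up oxidised lipoprotein and binds thrombospondin, was higher by 2.71. The uptake kinase AXL stood at 7.89, 7.87, 9.15 and 8.05, above the other arrays at 12 h only, with a mean over probe sets of 0.78. MERTK was higher by 1.06. Without probe sets of suffix _x_at or _s_at it was at -0.16, in a probe set under the filter on both arrays.

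Coagulation and fibrinolysis genes had 6 of 12 members higher and 2 lower (median 1.07, or 0.53 over the 17 on the array and 0.31 without _x_at and _s_at probe sets). Thrombospondin (THBS1) stood at 3.32, 7.48, 8.79 and 7.83, but another probe set differed by 0.16 only. SERPINE2, an inhibitor of thrombin and urokinase, stood at 8.85, 9.94, 11.67 and 9.98. ANXA2, a cell-surface cofactor of plasmin formation, was higher by 2.5 in its 3 probe sets past the filter. A further probe set, under the filter on both arrays, differed by 0.05. The urokinase receptor PLAUR and urokinase (PLAU) were higher by 2.17 and 1.80, and thrombomodulin (THBD) by 1.60. Factor XIII A chain (F13A1) was lower by -2.02 and tissue factor (F3), which starts coagulation, by -1.17.

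Eicosanoid genes had 4 of 19 higher and 1 lower (median -0.01). The lipoprotein-associated phospholipase PLA2G7 was higher by 6.06, ALOX5AP, the helper of leukotriene synthesis, by 1.82, the thromboxane synthase TBXAS1 by 1.47 and PTGS1 by 1.14 (0.87 as a mean). The leukotriene receptor CYSLTR1 was lower by -2.15. Inducible PTGS2 was under the filter, at 4.38 and 5.77.

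Purinergic receptors and nucleotide enzymes, listed together with the receptors GPR84, GPR132 and GPR183, had 7 of 17 higher and 2 lower (median 0.71, or 0.21 over the 22 on the array). The ATP-gated channel P2RX7 was higher by 3.61, the lipid receptor GPR84 by 3.11, adenosine deaminase ADA by 2.74, GPR132 by 2.31, GPR183 by 1.82 and P2RX4 by 1.56. The nucleotide receptor P2RY2 stood at 10.37, 8.99, 7.78 and 8.79 and was lower, as was P2RX1 by -1.11.

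Inflammasome and pyroptosis genes had 5 of 17 higher and 0 lower (median 0.51). CASP5 was higher by 2.15, NLRC4 by 1.75, NINJ1, which ruptures the membrane of dying cells, by 1.59 and CASP1 by 1.51, beside AIM2. The BCL2 family and death regulators had 3 of 22 higher and 1 lower (median -0.01). The survival factor BCL2A1 stood at 4.08, 8.43, 9.44 and 9.09, BMF was higher by 1.87 and CFLAR by 1.62. BCL2 itself was lower by -1.86 (-0.72 as a mean of probe sets). Hence 2 genes that oppose cell death lay on opposite sides of their resting level.

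Complement genes had 3 of 10 higher and 1 lower (median 0.16): C3 by 2.17, properdin (CFP) by 2.11, CD59 by 1.41 and C1S lower by -1.16 (-0.63 as a mean). The kynurenine pathway of tryptophan breakdown had 5 of 10 higher and 0 lower (median 1.05). TDO2 stood at 5.56, 7.73, 9.20 and 8.87, IDO2 and the receptor AHR were each higher by 2.82, KYNU by 1.68 and KMO by 1.2.

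Metallothioneins and zinc transporters had 4 of 13 higher and 1 lower (median 0.58, or 0.23 without _x_at and _s_at probe sets). MT1M was higher by 2.20, MT2A by 1.83, the metal-sensing factor MTF1 by 1.32 (0.94 as a mean) and MT1X by 1.23, and near-identical metallothionein copies may share probes. The zinc importer SLC39A14 was lower by -1.32 (-0.37 as a mean). Iron and haem genes had 3 of 17 higher and 1 lower (median 0.09). Haem oxygenase HMOX1 stood at 5.63, 8.33, 8.78 and 8.53, the metalloreductase STEAP4 was higher by 2.78 and the iron importer SLC11A2 by 2.48. Ferroportin (SLC40A1), the iron exporter, stood at 9.0, 6.58, 6.71 and 6.86 and was lower.

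NRF2 targets, which answer oxidative stress, had 8 of 18 higher and 0 lower (median 0.88). The autophagy receptor SQSTM1 was higher by 2.39, GCLC, the first enzyme of glutathione synthesis, by 1.98, ME1 by 1.97, NQO1 by 1.94, PGD by 1.77 (0.62 as a mean) and the cystine transporter SLC7A11 by 1.57. Cathepsins and lysosomal genes had 8 of 21 higher and 0 lower (median 0.45), led by CTSH (2.40), GPNMB (1.95), CTSD (1.82), the lysosomal regulator TFEB (1.43) and CTSC (1.10).

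LXR targets and lipid-handling genes had 2 of 19 higher and 4 lower and a median of -0.62 (-0.27 over the 22 on the array). The median rested on the choice of probe set: it was -0.32 with 2 higher and 2 lower as a mean of probe sets, and -0.04 with 2 higher and 0 lower without _x_at and _s_at probe sets. Lipoprotein lipase (LPL) stood at 10.94, 10.34, 9.60 and 10.29. MYLIP, which degrades the LDL receptor, was lower by -1.27 (-0.90 as a mean), the desaturase SCD by -1.21 (-0.56 as a mean) and the phospholipid carrier PLTP by -1.08. The higher members were CD36 and the fatty acid ligase ACSL1 (1.75). Cholesterol synthesis had 0 of 14 members at 2-fold (median -0.14), with a range from -0.71 to 0.54.

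Stress lists were small in effect. The unfolded protein and integrated stress list had 1 of 20 higher and 2 lower (median -0.15): ATF3 by 1.80 (0.62 as a mean), VLDLR lower by -2.37 and asparagine synthetase ASNS by -1.2, which was at 0.11 without _x_at and _s_at probe sets. Heat shock genes had 0 of 13 higher and 1 lower (median 0.15), HSPB1 by -1.58. Glycolysis and hypoxia genes had 3 of 25 higher and 0 lower (median 0.09): the lysosomal sugar transporter SLC2A6 by 3.17, the pyruvate kinase PKM by 1.42 and ANKRD37 by 1.03 (0.43 as a mean). Amino acid transport and polyamine genes had 4 of 20 higher and 2 lower (median -0.07). Beside SLC7A11 these were the polyamine acetyltransferase SAT1 (2.39), SLC7A7 (1.85) and the glutamate carrier SLC1A3 (1.72), with AGMAT (-1.52, or -0.89 as a mean) and ASS1 (-1.06, or -0.93 after cyclic loess) lower.

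Immediate early and MAPK feedback genes had 9 of 22 higher and 2 lower (median 0.62). IER3 was higher by 3.54, the phosphatases DUSP10, DUSP4 and DUSP6 by 1.97, 1.82 and 1.64, and JUN by 1.79. MYC, a driver of growth, was lower and stood at 10.49, 10.01, 9.05 and 9.69. FOSL2 was lower by -1.47 (-0.80 as a mean).

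Genes of the immature myeloid state were among the lower ones. The azurophil granule and progenitor list had 0 of 13 members higher and 5 lower (median -0.45, beside -0.08 for all genes). After MS4A3, CEACAM6 stood at 10.35, 6.95, 7.82 and 6.62, the granule protease PRTN3 at 11.16, 9.34, 9.38 and 9.15, and the progenitor factor MYB at 12.97, 11.88, 11.35 and 11.75. Myeloperoxidase (MPO) was lower by -1.27. In all of these the resting array was the highest of the 4.

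Myeloid transcription factors had 7 of 25 higher and 3 lower (median 0.16). MAFF was higher by 3.47, though 0.71 with the probe set brightest on the 2 arrays compared. PRDM1 was higher by 3.41, BHLHE40 by 2.95, MAF by 2.90, BCL6 by 2.74 and RUNX3 by 1.34. Other probe sets past the filter reached down to 0.58 for PRDM1, 0.16 for BHLHE40 and -0.03 for RUNX3. GFI1, a repressor of progenitors and granulocyte precursors, stood at 11.13, 10.21, 9.0 and 9.90 and was lower. HHEX was lower by -1.2 (-0.83 as a mean) and RUNX2 by -1.0, at the edge of the threshold (-0.87 after cyclic loess). As a mean of probe sets RUNX2 was at -0.18, and another of its probe sets past the filter was at 0.18.

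Housekeeping and growth lists stayed near their resting level. Ribosomal protein genes had 0 of 21 at 2-fold, with a range from -0.21 to 0.03 (median -0.10). Oxidative phosphorylation genes had 0 of 25 (median -0.18, range -0.56 to 0.35). Among 43 proliferation and DNA replication genes, 1 was higher and 0 lower (median -0.18), the cell-cycle inhibitor CDKN1A by 1.37. Reference genes had 0 of 11 at 2-fold (median 0.05), with ACTB at 0.02 and GAPDH at 0.14.

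**Figure D5:**
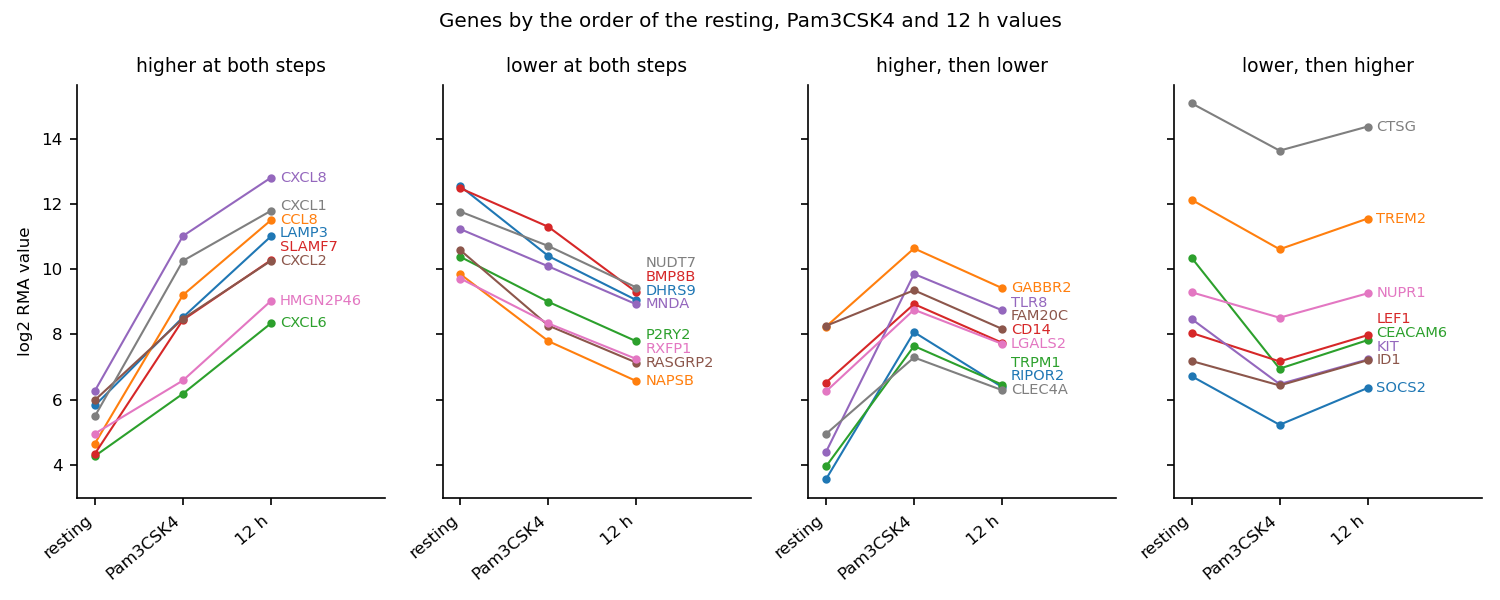
Log2 RMA values (y) of 32 genes on the resting, Pam3CSK4 and 12 h arrays (x), 8 genes in each panel, chosen by the order of their values. In the panels of genes higher or lower at both steps the Pam3CSK4 value lies between the other values. In the panels of genes whose steps differ in sign it lies above or below both.

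The Pam3CSK4 array shows where the difference between resting and 12 h lay, although it shares an array with each step and the steps are given as values only. Of the genes that stood higher at both steps, LAMP3 had the largest smaller step, with 2.70 from resting to Pam3CSK4 and 2.48 from there to 12 h. CCL8 had 4.55 and 2.29, CXCL6 1.91 and 2.16, the transcribed pseudogene HMGN2P46 1.63 and 2.44, SLAMF7 4.10 and 1.83, CXCL8 4.74 and 1.79, CXCL2 2.49 and 1.78, and CXCL1 4.76 and 1.53. So 5 of these 8 genes are chemokines.

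Genes lower at both steps were DHRS9 (-2.14 and -1.35), NAPSB (-2.05 and -1.22), P2RY2 (-1.38 and -1.21), BMP8B (-1.18 and -2.0), the myeloid nuclear antigen MNDA (-1.14 and -1.16), RASGRP2 (-2.31 and -1.14), the relaxin receptor RXFP1 (-1.38 and -1.09) and NUDT7 (-1.06 and -1.27). For BMP8B, NUDT7 and, by a small margin, MNDA the second step was the larger.

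Other genes were higher on the Pam3CSK4 array than on the resting and 12 h arrays, so the difference between 12 h and resting was smaller than the first step. The arrays stand for conditions, and no course over time is read from them. RIPOR2 stood at 3.56, 8.07, 6.39 and 8.10, and was at 0.70 with the probe set brightest on the 2 arrays compared. The GABA receptor GABBR2 had 2.40 and -1.22 (with 0.91 between 12 h and resting as a mean of probe sets), the cation channel TRPM1 3.69 and -1.18, CD14 2.40 and -1.18, TLR8 5.46 and -1.11, the galectin LGALS2 2.5 and -1.05, and CLEC4A 2.34 and -1.0. The secretory kinase FAM20C had 1.09 and -1.18, with -0.09 between 12 h and resting. The 24 h value of each of RIPOR2, TRPM1, CD14, TLR8 and CLEC4A lay at or above the Pam3CSK4 value.

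In the opposite order, SOCS2 stood at 6.72, 5.23, 6.35 and 6.23, and the lipid receptor TREM2 at 12.12, 10.61, 11.55 and 10.98. The serine protease CTSG of azurophil granules had -1.45 and 0.74, CEACAM6 -3.40 and 0.87, KIT -2.0 and 0.75, LEF1 -0.87 and 0.80, NUPR1 -0.78 and 0.75, and ID1 -0.75 and 0.77. Except for CEACAM6 and KIT, these 8 genes were within 2-fold of resting at 12 h.

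Markers of other cells were examined because particles can carry RNA and the labels do not name their source. Of 30 megakaryocyte and platelet markers, 27 are on the array and 15 reached the filter, 1 higher and 1 lower (median 0.14). GNG11 was higher by 1.28 (0.78 as a mean of probe sets) and NFE2 lower by -2.13. ITGA2B, the platelet integrin chain, stood at 6.45 and 6.24, GP9 at 7.58 and 7.51, TUBB1 at 5.0 and 4.97, so these defining platelet genes were at or near their resting values. Over the 15 genes past the filter the median level was 6.65 in resting cells and 6.79 at 12 h.

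Erythroid markers had 9 of 18 past the filter, 0 higher and 1 lower (median 0.15), the carbonic anhydrase CA2, which went from 13.70 to 11.37. HBE1, the embryonic globin, stood at 5.42, 5.45, 6.30 and 7.50. The fetal globins HBG1 and HBG2 have no probe set of their own, and a probe set that reads both stood at 5.01, 5.29, 9.33 and 10.30. Thus the fetal globin signal was low on the arrays without particles and high on both with them. The erythroid markers GATA1 (6.58 and 6.72), AHSP (6.26 and 6.41), ALAS2 (5.95 and 6.01) and SLC4A1 (5.64 and 5.91) differed from resting by at most 0.27.

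Markers of T lymphocytes (6 of 15 past the filter), B lymphocytes (6 of 11), NK cells (5 of 10) and endothelium (5 of 13) had 0 genes at 2-fold in either direction, with medians of 0.06, -0.00, -0.01 and -0.01. Neutrophil markers had 5 of 13 past the filter, 0 higher and 1 lower, CXCR2 (median -0.37, or -0.11 over the 13). The fibroblast and epithelial list had 9 of 15 past the filter, 2 higher and 0 lower (median 0.06). The matrix proteoglycan lumican (LUM) stood at 3.40, 7.41, 8.0 and 7.73, with another probe set, under the filter, at 0.88. Decorin (DCN) stood at 7.14, 8.51, 9.03 and 8.35. Both stood high on the Pam3CSK4 array too, while the collagens COL1A2 (6.31 and 6.15) and COL3A1 (4.64 and 4.61) and the receptor PDGFRB (6.84 and 6.63) stayed at their resting values.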

How the data were processed

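The deposited table holds 54675 probe sets on 4 Affymetrix arrays of total RNA labelled with biotin. Per the submitters' processing notes, the deposited log2 values come from RMA in affy 1.28.1, a method that removes background, equalises the distributions of the arrays and fits 1 value per probe set. A general rise or fall in RNA is therefore invisible, and differences at low level are compressed. The sources used here name no genome build.

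Control probe sets (62) were set aside. Of the rest, 41091 name 1 gene in the platform annotation, 1801 name several and 11721 are not listed. The RefSeq table (GRCh38.p14) holds the gene IDs of 41037 of them and changed 0 symbols.

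Each difference is the 12 h value minus the resting value, for genes at or above 6.19 on either array. With 1 array a side there is no p-value or standard error, and the number of arrays limits the precision. The comparison, the 60 gene lists, the members and the rules were chosen with earlier results of these data known. Lists are given by counts and medians, without a set test. Genes are named by rule: the 15 leading genes in each direction whose probe sets share their sign, up to 6 members at least 2-fold apart per list and direction, every measured member of the receptor, NF-kB and chemokine lists, 8 genes for each order of the resting, Pam3CSK4 and 12 h values, ACTB, GAPDH and genes at the thresholds. Members named under the filter or with smaller differences, other markers and the globins were chosen after their values were seen.

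The alternatives were no filter, the 75th percentile (8.01), the median filter on any of the 4 arrays, other choices of probe set, thresholds of 1.5-fold or 3-fold, and cyclic loess (3 iterations, limma 3.58.1, R 4.3.3). Counting a gene by its least different probe set was chosen after seeing the data. The count was tested on simulated data for 12 h minus resting with 13328 genes and noise of 0.1 log2 per array. Genes raised 2.5-fold, 4-fold or 8-fold, 50 each, were counted in 100% of cases, and genes raised 1.5-fold in 0%. The noise was chosen and not measured, so this checks the counting and not how reliable the counted genes are. Other steps used Python 3.11.15, numpy 2.4.6, pandas 2.3.3 and matplotlib 3.10.9.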

Additional observations from a re-analysis of the deposited data

Results flagged for a closer look

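Some signal lies in probe sets that the comparison of genes does not use, and it is given here as values above those of the resting array. The 3 probe sets that read the fetal globins HBG1 and HBG2 together were higher at 12 h by 4.32, 2.98 and 2.35. Probe sets that name several genes reached the filter in 1154 cases, with 29 higher and 39 lower by the same threshold. Of 4044 past the filter with no gene listed, 177 were at least 2-fold higher and 87 lower.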

How the results depend on the processing

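The 683 higher and 565 lower genes stayed within 1.5 times under no filter, the other filters, the other choices of brightest probe set, omission of _x_at and _s_at probe sets, cyclic loess and the smallest difference over probe sets, with 525 to 762 higher and 407 to 591 lower genes. The mean of probe sets gave 519 higher and 343 lower genes. A threshold of 1.5-fold gave 1198 and 1635, and 3-fold gave 382 and 158, so that the share of higher genes among those counted was 54.7% at 2-fold, 42.3% at 1.5-fold and 70.7% at 3-fold. Cyclic loess shifted the median difference by 0.08 and gave 762 higher and 460 lower genes, 62.4% higher. Of 60 list medians, 13 changed sign under at least 1 setting, all between -0.14 and 0.19 as reported. Among them, chemokine and chemoattractant receptors were at -0.59 under the 75th percentile filter. Of 266 named genes at least 2-fold apart, 37 fell under 2-fold as a mean of probe sets and 6 after cyclic loess. Without _x_at and _s_at probe sets, 5 named genes changed sign: FPR1 (-0.20), CD300A (0.089), ITGAM (-0.093), MERTK (-0.16) and ASNS (0.11). The cause was not tested. For FPR1, CD300A and MERTK the probe set used instead was under the filter on both arrays. Values of single genes under other choices of probe set were taken without the filter, so means may include probe sets under it. No paired analysis was possible because each condition has 1 array. Signal over background could be judged only by level.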
